A study of Thermothelomyces thermophilus with 6 samples.

Results

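Mycelium of the thermophilic fungus Myceliophthora thermophila (now Thermothelomyces thermophilus) that had spent 4 h without any carbon source was compared with mycelium kept for 4 h on glucose. The comparison rests on 4 of the 6 RNA-seq libraries of the series, 2 of starved and 2 of glucose-fed mycelium, and it covers all 9110 genes of the deposited count table. The remaining 2 libraries, from starch, were in the shared fit for the estimate of the spread between replicates. They also entered the choice of genes with enough reads and the scaling of the libraries. Both groups were the strain ATCC 42464. Per the labels' protocols, a preculture of 18 h at 45 °C in mineral salts (Vogel's) with 2% glucose came first, and the mycelium was washed before the transfer. The labels give no glucose concentration for the test medium and list no library from before the transfer, so a gene that is higher without carbon can be one that the starved mycelium raised or one that the glucose-fed mycelium lowered. The labels do not say that replicates came from separate cultures, and p-values then measure only the spread between these libraries.

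This fungus lives on decaying plant matter at elevated temperature and secretes enzymes that break down cellulose, hemicellulose, pectin and starch. In filamentous fungi, glucose holds many genes for the use of other carbon sources at a low level, which is known as carbon catabolite repression. When no carbon is left, that repression is lifted, growth slows, and cells turn to their own reserves.

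The deposited table gives gene IDs, and only 6 genes have a symbol in the RefSeq table of this species: gla1, cbdA, ganA, phy1, cat1 and lcc1. All others are named by ID, with no product, because neither source pairs them with one. Counted reads came to 21820858 and 17726204 in the no carbon libraries and 19591786 and 23635336 in the glucose libraries. At these depths 3 reads, taken as the floor, equal 0.127 to 0.169 CPM (the reads of a gene scaled to the size of its library) by library totals, before the TMM factors that enter all other CPM values. Replicates correlated across genes at r = 0.998 without carbon and 0.999 on glucose (log2 of CPM + 1), and the fitted common biological variation between replicates was 2.52%.

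Most genes differed between starved and glucose-fed mycelium. Of 8718 genes with enough reads to test, 3983 (45.7%) were higher without carbon and 3907 (44.8%) were lower at an adjusted p under 0.05, together 90.5% (edgeR quasi-likelihood test, Benjamini-Hochberg adjustment over all genes tested). Because so many genes passed, each was also tested against a change of 2-fold, and 1869 (21.4%) were more than 2-fold higher and 1895 (21.7%) more than 2-fold lower, together 43.2% (edgeR glmTreat). The words rose and fell below refer to this 2-fold test unless a sentence says otherwise, and fold changes are no carbon over glucose. Scaling by library totals alone, in place of TMM factors, gave a median log2 fold change over all genes of 0.27, against 0.02 with TMM, and split the 2-fold calls into 2316 higher and 1514 lower, or 60.5% higher against 49.7% higher with TMM. Fold changes are therefore relative to the other genes of a library. In such bulk RNA, fewer hyphae that transcribe a gene and less RNA per hypha cannot be told apart, and total RNA per mycelium was not measured. Both libraries of one medium lay above both of the other for 4179 genes (47.9%) higher and 4086 genes (46.9%) lower without carbon.

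The typical gene that rose had a low level on glucose, and the typical gene that fell had a higher one there. Both groups were called from these same libraries, so their levels and read shares are a description. CPM values are also not scaled to gene length. The rising genes had a median of 29.0 CPM without carbon and 6.49 CPM on glucose. The falling genes had a median of 19.3 CPM without carbon and 75.2 CPM on glucose. In library terms, the rising genes took 22.6% and 22.1% of the reads in the no carbon libraries, against 5.26% in each glucose library. The falling genes took 11.3% and 11.2% of the reads in the no carbon libraries, against 38.03% and 38.6% in the glucose libraries. The genes that did neither held 66.1% and 66.7% of the reads without carbon and 56.7% and 56.1% on glucose, so most reads in either medium came from genes that did not pass the 2-fold test.

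**Figure D1:**
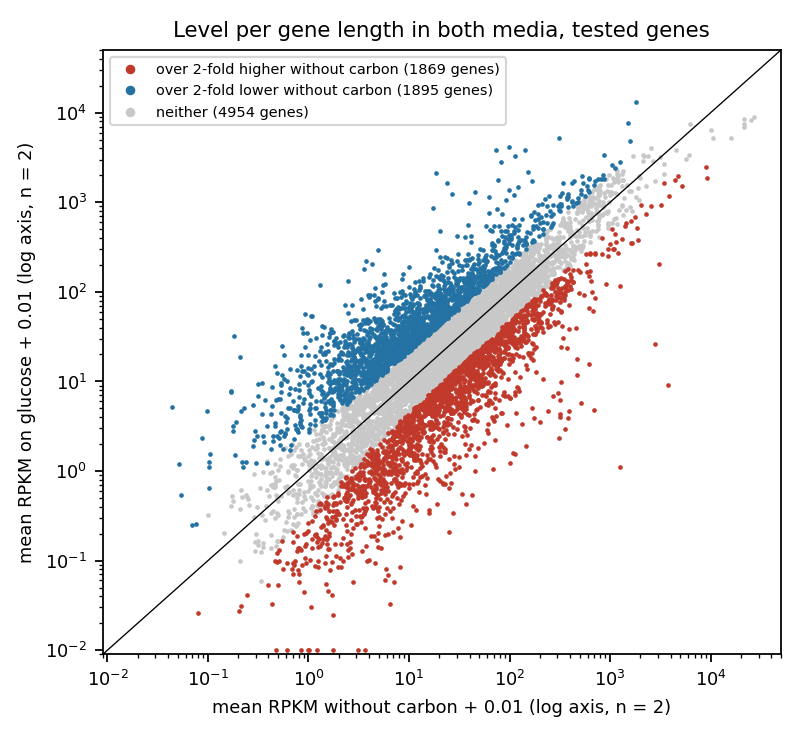
Level per gene length of each tested gene without carbon and on glucose, each the mean of 2 libraries. Values are RPKM (CPM relative to gene length) + 0.01 on log axes. Genes that rose over 2-fold, fell over 2-fold or did neither are in separate colours. The 1869 rising genes spread widest where the glucose level is low, and the 1895 falling genes reach the highest glucose levels.

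Large rises were more numerous than large falls at the far end of the range. Among the genes past the 2-fold test, 946 rose and 842 fell by more than 4-fold, 148 rose and 99 fell by more than 16-fold, and 35 rose and 7 fell by more than 64-fold. Much of that excess lay in genes that were scarce in both media. With at least 10 CPM required in the higher group, 74 genes rose and 88 fell by more than 16-fold, and 19 rose and 7 fell by more than 64-fold. Genes close to silent in one medium were few in both directions. Only 14 genes had under 1 CPM in both glucose libraries and at least 10 CPM in both no carbon libraries, with a median of 15.2 CPM without carbon. The reverse, under 1 CPM in both no carbon libraries and at least 10 CPM in both glucose libraries, held for 13 genes, with a median of 15.4 CPM on glucose.

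Among the genes with a symbol, the one for starch breakdown and those for phosphate release and peroxide removal were lower without carbon. Glucoamylase, the product of gla1 (Mycth_72393), cuts single glucose units off starch. Its gene had 8.89 and 7.55 CPM without carbon, against 49.8 and 53.5 CPM on glucose. The level was 6.24-fold lower in starved mycelium (log2 fold change -2.64, SE 0.060, edgeR adjusted p = 1.11e-37). Phytase, encoded by phy1 (Mycth_104551), frees phosphate from phytate, the phosphate store of seeds. It had 1.79 and 3.19 CPM without carbon, against 56.1 and 59.8 CPM on glucose. This was the largest fall among the 6, 24.0-fold, and both no carbon libraries lay far below both glucose libraries (edgeR adjusted p = 6.06e-37). Catalase, encoded by cat1 (Mycth_80916), splits hydrogen peroxide into water and oxygen. It had 29.5 CPM in each no carbon library, against 118.8 and 120.5 CPM on glucose, and was 4.06-fold lower in starved mycelium (edgeR adjusted p = 1.53e-34).

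The other 3 enzymes act on plant cell wall material and were higher without carbon, although only the scarcest passed the 2-fold test. Of all tested genes, 45.7% were higher and 44.8% lower without carbon at an edgeR adjusted p under 0.05. The directions of so few genes with a symbol are therefore a description and show no theme. Cellobiose dehydrogenase, encoded by cbdA (Mycth_111388), oxidises the cellulose fragment cellobiose and hands electrons to polysaccharide monooxygenases. It had 18.7 and 16.9 CPM without carbon, against 12.7 and 11.5 CPM on glucose, a 1.48-fold difference (log2 0.57, SE 0.092, edgeR adjusted p = 2.6e-07). The gene ganA (Mycth_43163) encodes an endo-galactanase, which cuts the galactan side chains of pectin, and had 8.72 and 8.62 CPM without carbon, against 4.88 and 4.74 CPM on glucose. It was 1.80-fold higher in starved mycelium (edgeR adjusted p = 3.19e-07) and, like cbdA, did not pass the 2-fold test (adjusted p = 1 for both). Laccase, a copper enzyme encoded by lcc1 (Mycth_51627) that oxidises phenols such as those of lignin, was close to silent in both media. It had 1.62 and 1.38 CPM without carbon, against 0.227 and 0.235 CPM on glucose, or 64 reads without carbon and 9 on glucose. The ratio was 6.54, with an exact 95% counting interval of 3.24 to 15.0 that covers counting error only (edgeR adjusted p = 2.18e-06). With the gene length trend removed, the log2 fold change of cbdA was 0.98 and that of ganA 0.54.

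The largest changes are given among genes past the 2-fold test that reached 10 CPM in the higher group and whose libraries did not overlap between the media. The largest rise among these belonged to Mycth_115957, which had 1350 and 1332 CPM without carbon, against 1.47 and 0.892 CPM on glucose, a 1154-fold difference (log2 10.17, SE 0.055, edgeR adjusted p = 1.52e-63). The glucose libraries held 26 and 19 of its reads, so it was close to silent there. The second among these, Mycth_2309773, had 3116 and 3119 CPM without carbon, against 7.31 and 7.70 CPM on glucose, a 414-fold difference. Per length it ranked 19 of 9110 genes without carbon and 6276 on glucose. Mycth_50128 followed with 580.0 and 568.3 CPM without carbon, against 4.37 and 3.47 CPM on glucose, or 148-fold. Of the 10 largest rises, 7 stood at over 500 CPM without carbon and under 10 CPM on glucose in every library: these 3, Mycth_108044 (121-fold), Mycth_2307942 (107-fold), Mycth_2296064 (97.2-fold) and Mycth_48716 (89.2-fold). The other 3 had lower CPM, and their glucose values rest on few reads. Mycth_100541 had 91.2 and 92.0 CPM without carbon, against 0.340 and 1.03 CPM on glucose, and its log2 fold change of 6.98 became 8.05 without glucose replicate 2. Mycth_78093 had 46.3 and 47.4 CPM without carbon, against 0.794 and 0.282 CPM on glucose, and its log2 fold change of 6.49 was 7.35 without glucose replicate 1 and 5.87 without glucose replicate 2. Mycth_2130409 had 12.4 and 13.99 CPM without carbon, against 0.113 and 0.0939 CPM on glucose, where 4 reads were counted in all. Its ratio was 127, with an exact 95% counting interval of 49.5 to 469.

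Among the largest falls, chosen by the same limits, were genes whose RNA was abundant on glucose. Mycth_110028 had 21.2 and 32.1 CPM without carbon, against 3055 and 3056 CPM on glucose, and was 116-fold lower in starved mycelium (edgeR adjusted p = 3.14e-05). Mycth_108317 had 160.1 and 167.3 CPM without carbon, against 10691 and 11719 CPM on glucose. It was 68.5-fold lower in starved mycelium (edgeR adjusted p = 1.15e-05). Mycth_112491 was 60.05-fold lower, with 4.38 and 6.92 CPM without carbon, against 322.0 and 340.2 CPM on glucose, and Mycth_2299088 was 59.8-fold lower. The largest fall among these by the fitted value, Mycth_2074571, had 0.170 and 0.532 CPM without carbon, against 66.7 and 64.03 CPM on glucose, a 194-fold difference. Mycth_112805 had 0.128 and 0.372 CPM without carbon, against 35.6 and 39.8 CPM on glucose, a 156-fold difference. Both rest on few reads in starved mycelium, so the size of their falls is loose while the groups are far apart. Their exact 95% counting intervals were 117 to 361 for Mycth_2074571 and 87.0 to 335 for Mycth_112805. Leaving out the first no carbon library gave log2 fold changes of -6.93 for Mycth_2074571 and -6.65 for Mycth_112805, and leaving out the second gave -8.54 and -8.15. Mycth_2303731 had 0.255 and 0.426 CPM without carbon, or 6 and 8 reads, and was 95.9-fold lower (exact 95% counting interval 57.9 to 179). Mycth_18938 had 0.128 and 0.426 CPM without carbon, or 3 and 8 reads, and was 56.1-fold lower (exact 95% counting interval 31.9 to 116). Both were at or close to the floor in starved mycelium. Mycth_2299888, with 0.595 and 1.22 CPM without carbon, was 94.8-fold lower, and Mycth_2133058, with 0.468 and 1.06 CPM without carbon, was 65.2-fold lower. The log2 fold change of Mycth_18938 was -5.81 with all libraries, -5.11 without the first no carbon library and -6.81 without the second. That of Mycth_2133058 was -6.03 with all libraries and -6.67 without the second.

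**Figure D2:**
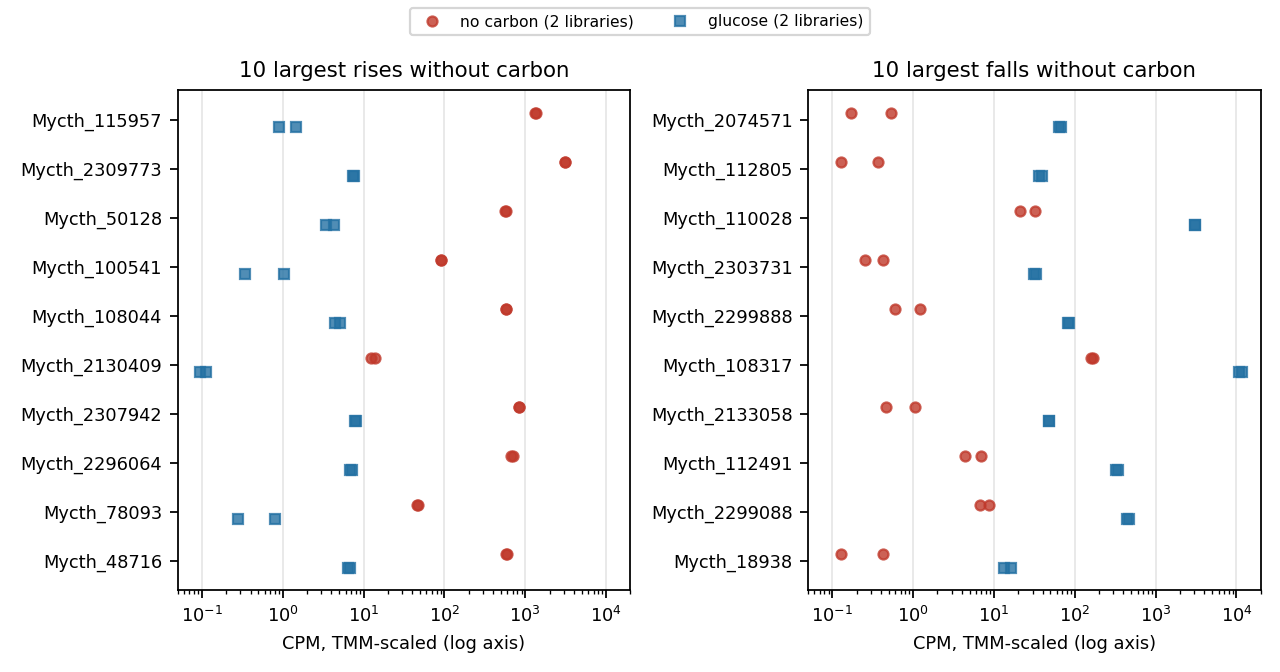
The 10 largest rises (left panel) and 10 largest falls (right panel) among genes past the 2-fold test with at least 10 CPM in the higher group, with the CPM of each library on a log axis. Genes were required to have no overlap between the media, and replicates lie apart mainly where the level is under about 1 CPM.

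Levels of different genes can be compared only per length, for which RPKM, the reads of a gene relative to its length and to the library, was used (scaled by TMM factors), among gene models of at least 500 bases. The 100 genes with the highest levels overlapped in part: 55 were in the top 100 of both media. Of the top 100 without carbon, 29 had risen, 7 had fallen and 64 had done neither, beside 21.4% risen and 21.7% fallen among all tested genes. Of the top 100 on glucose, 40 had fallen, 4 had risen and 56 had done neither. A high level in 1 medium chose these genes, so the counts are a description. With models of every length ranked, the top 100 genes without carbon had a median rank of 103.5 on glucose. In the same ranking, the top 100 on glucose had a median rank of 110.5 without carbon. Among these models 370 and 371 genes made up 0.5 of the per-length total in the no carbon libraries, against 299 and 302 in the glucose libraries. With models under 500 bases included the order was the opposite, 217 and 178 genes in the no carbon libraries, against 246 and 263 in the glucose libraries. These short models held 23.4% and 27.7% of the per-length total in the no carbon libraries, against 14.2% and 12.2% in the glucose libraries. Some of the most abundant short models had replicates far apart, as given under the other observations.

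At the top, 3 genes were among the 10 highest of these models in both media. Mycth_2141513 had 9929 and 10178 RPKM without carbon and 6495 and 6392 RPKM on glucose. Mycth_2133976 had 6261 and 6322 RPKM without carbon and 7543 and 7612 RPKM on glucose. Mycth_2297659 had 4541 and 4471 RPKM without carbon and 3891 and 3784 RPKM on glucose. None of them passed the 2-fold test, and the replicates of each lay close together. With the gene length trend removed, Mycth_2133976 had a log2 fold change of -1.21, against -0.27. Of the 10 highest levels without carbon, 5 belonged to genes that rose, among them Mycth_2309773 with 3781 and 3785 RPKM without carbon and 8.88 and 9.34 RPKM on glucose. The others were Mycth_82981 (5200 and 5089 RPKM without carbon, 1500.4 and 1550 RPKM on glucose), Mycth_111405 (4751 and 4682 RPKM without carbon, 2013 and 1957 RPKM on glucose), Mycth_2301963 (4459 and 4473 RPKM without carbon, 1748 and 1768 RPKM on glucose) and Mycth_2315630 (3853 and 3804 RPKM without carbon, 1180 and 1155 RPKM on glucose). Apart from Mycth_2309773, these were abundant on glucose too and rose by 2.38-fold to 3.37-fold. With the gene length trend removed, the log2 fold changes of Mycth_111405 and Mycth_2301963 shrank to 0.58 and 0.32. More of the highest levels on glucose were far lower in starved mycelium. Mycth_87219 had 1501 and 1513 RPKM without carbon and 7600 and 7732 RPKM on glucose, and was 5.09-fold lower in starved mycelium. Mycth_108407 had 69.0 and 77.7 RPKM without carbon and 3769 and 3993 RPKM on glucose, and Mycth_11658 had 96.7 and 103.3 RPKM without carbon and 3890 and 4319 RPKM on glucose. Along with Mycth_82772 (312.6 and 316.0 RPKM without carbon, 5210 and 5186 RPKM on glucose) and Mycth_69746 (136.4 and 146.9 RPKM without carbon, 3815 and 3828 RPKM on glucose), these genes ranked between 12 and 18 on glucose and between 408 and 1771 without carbon, with models of every length ranked.

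Some abundant genes hardly differed between the media. Mycth_2298136 had 5539 and 5437 CPM without carbon, against 5695 and 5623 CPM on glucose, a log2 fold change of -0.04 (SE 0.023, edgeR adjusted p = 0.0716). Mycth_2304568 had 1688 and 1700 CPM without carbon, against 1726 and 1701 CPM on glucose, a log2 fold change of -0.02 (edgeR adjusted p = 0.553). Differences of this size were within the reach of scaling: by library totals alone the same genes had log2 fold changes of 0.20 and 0.23. Across all tested genes, 2452 (28.1%) had an absolute log2 fold change under 0.5, and the median absolute log2 fold change was 0.96 with a median SE of 0.066.

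Genes that responded alike often lay next to each other on a chromosome. Gene order came from the RefSeq assembly of this species, which placed 9087 of the 9110 genes. Over 8385 pairs of adjacent tested genes, 31.6% of the neighbours of a gene that rose had also risen and 16.5% had fallen, beside 21.4% and 21.8% of all placed genes. Of the neighbours of a gene that fell, 28.9% had also fallen and 15.5% had risen. Across these pairs the log2 fold changes of neighbours correlated at r = 0.21 and Spearman rho = 0.17, which describes pairs of genes from the same 4 libraries. Unbroken runs of at least 5 genes numbered 18 among rising genes, with 105 members, and 12 among falling genes, with 66 members. Without the strand of the counted reads, overlapping neighbours cannot be told apart, and whether neighbours are near-identical copies that share reads was not analysed here.

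The longest run was a block of 10 consecutive genes on chromosome 3, all of which rose, with a median log2 fold change of 6.01. It starts with Mycth_2303695 (2.05) and Mycth_68164 (2.24), goes on with Mycth_50128 (7.21) and Mycth_115957 (10.17), and ends with Mycth_2303701 (3.46), Mycth_2303702 (6.20), Mycth_2138881 (6.33), Mycth_2303707 (5.35), Mycth_81364 (5.82) and Mycth_2303709 (6.27), all as log2 fold changes. Mycth_2303702 had 547.5 and 527.6 CPM without carbon, against 7.43 and 7.23 CPM on glucose. Mycth_2138881 had 409.4 and 408.4 CPM without carbon, against 5.16 and 5.02 CPM on glucose. Mycth_2303709 had 275.3 and 283.8 CPM without carbon, against 3.69 and 3.57 CPM on glucose. Every library of starved mycelium lay above every glucose library in all 10 genes of the block, as in 47.9% of all tested genes. The block's genes were called from these same libraries, so this is a description. On either side, 1 gene that did not pass the 2-fold test separated the block from another that rose. Mycth_2303693, just before it, had a log2 fold change of 0.28, and the gene before that, Mycth_2303692, rose by 2.90 on the log2 scale. Mycth_50920, just after it, had a log2 fold change of 0.60 and did not pass the 2-fold test, whereas the next gene, Mycth_48716, had 589.0 and 580.0 CPM without carbon, against 6.75 and 6.38 CPM on glucose. This stretch of 14 genes therefore held 12 that rose, beside 21.4% of all tested genes. It also held 3 of the 10 largest rises among genes with at least 10 CPM in the higher group. The run was chosen because its genes rose, so these counts are a description. All 10 members of the block passed the 2-fold test under each of the alternatives tried.

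The longest run of genes that fell lay on chromosome 4 and had 7 members, with a median log2 fold change of -4.86. Its members include genes with some of the highest levels on glucose. Mycth_82782 had 194.2 and 197.9 CPM without carbon, against 5661 and 5687 CPM on glucose, a 29.0-fold difference. Mycth_11658 had 136.9 and 146.2 CPM without carbon, against 5508 and 6115 CPM on glucose, and was 41.1-fold lower in starved mycelium (edgeR adjusted p = 1.51e-05). Mycth_69746 and Mycth_82772 were 27.0-fold and 16.5-fold lower, and Mycth_108317, described above, lay between Mycth_11658 and Mycth_69746. This block thus held 3 of the 10 highest per-length levels on glucose among models of at least 500 bases. On one side it began with Mycth_2306185 and Mycth_2064854. Mycth_2064854 had 8.76 and 9.68 CPM without carbon and 407.0 and 431.1 CPM on glucose. Mycth_2306185 had 12.1 and 13.03 CPM without carbon and 31.4 and 29.1 CPM on glucose, and was only 2.41-fold lower in starved mycelium. Under library totals, upper quartile scaling or DESeq2, 6 of the 7 members passed the 2-fold test. Genes on both flanks went the other way: Mycth_2306182 on one side had a log2 fold change of 1.85 and rose, and on the other side Mycth_2127750, the second gene out, rose by 1.93 on the log2 scale.

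Of runs equally long, those with the larger median change are described, which took 2 of the 4 falling runs of 6 genes. A second run on chromosome 3 had 7 genes that rose, with a median log2 fold change of 3.22, among them Mycth_2127280 (5.55, resting on 4 glucose reads) and Mycth_2305442 (4.996). Within it Mycth_2305443 had a log2 fold change of 2.43, and of 3.14 without glucose replicate 2. With DESeq2, 5 of these 7 genes passed the 2-fold test, and with the gene length trend removed 6 of 7 did: Mycth_93575 had a log2 fold change of 0.86, against 1.80, Mycth_2127280 of 4.30 and Mycth_2305443 of 1.82. A run of 7 on chromosome 6 rose with a median log2 fold change of 2.65, and none of its members exceeded Mycth_2310759 at 3.65. With the gene length trend removed, 6 of these 7 genes passed the 2-fold test, and the log2 fold change of Mycth_2310760 was 0.89, against 2.03, and that of Mycth_2130127 was 1.67, against 2.74. A run of 6 on chromosome 5 fell with a median of -4.02, led by Mycth_2308099 (-5.67), and in it Mycth_2308101 had -4.18, or -4.80 without the second no carbon library and -5.37 with the length trend removed. A run of 6 on chromosome 1 fell with a median of -3.72 and held Mycth_112805, one of the 10 largest falls given above. None of the 6 runs described lay near a chromosome end: the closest was 71 genes away from one.

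**Figure D3:**
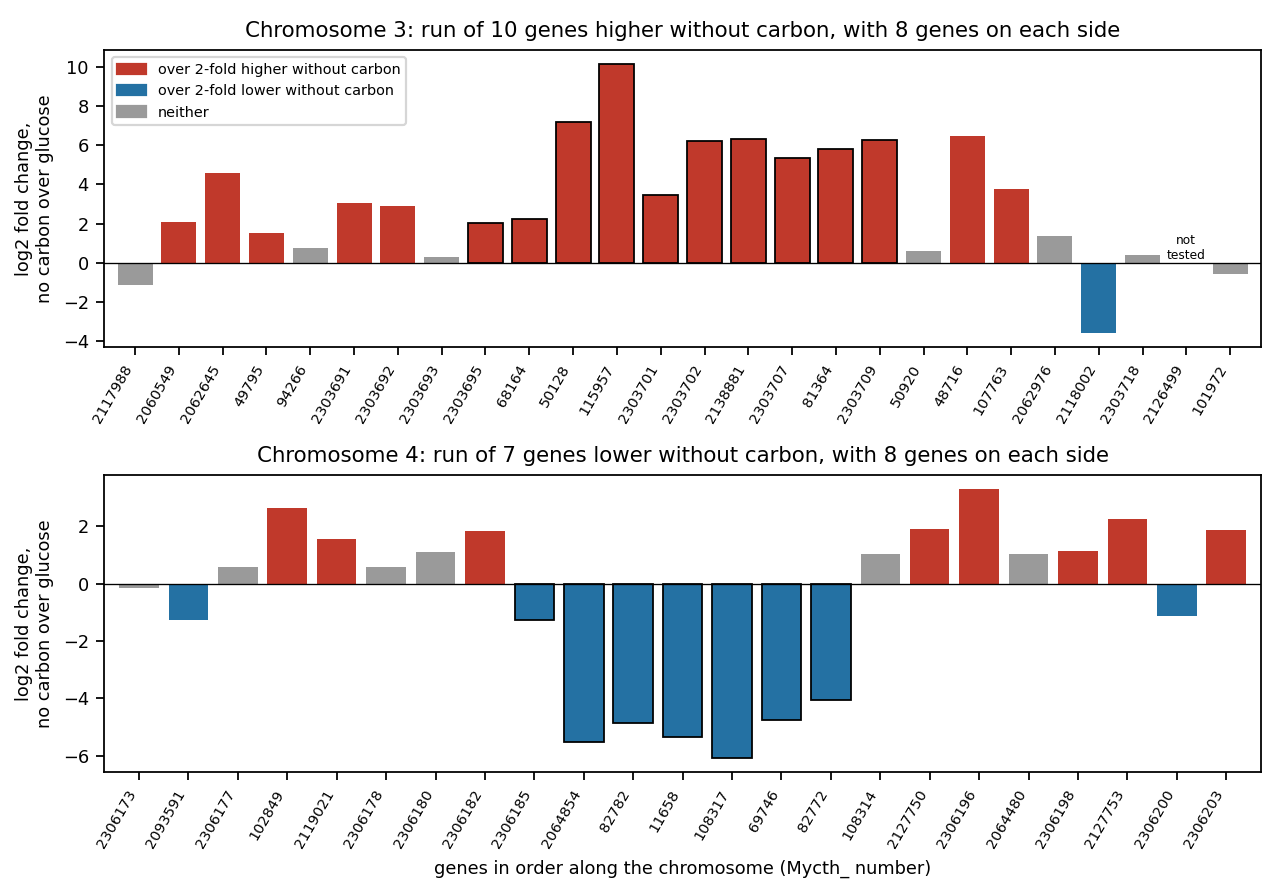
Log2 fold change (no carbon over glucose) of each gene in order along the chromosome. The panels show the longest run of rising and the longest run of falling neighbours, with genes on both sides. Genes past the 2-fold test are coloured by direction, and the others are grey. The run of 10 genes on chromosome 3 reaches 10.17. At both edges of the 7 falling genes on chromosome 4 the sign of the change switches, and some flanking genes rose.

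A larger share of genes rose near chromosome ends than elsewhere; these shares are described and not tested. Among the outermost 30 genes of each of the 14 chromosome ends, 388 of 420 could be tested, and 136 (35.1%) rose while 44 (11.3%) fell, with a median log2 fold change of 0.76. Elsewhere 20.8% of 8310 tested genes rose and 22.3% fell, with a median of -0.01. The outermost 10 genes stood furthest apart: 51.6% of 126 tested genes rose and 8.73% fell, with a median of 1.35. Their median level was 17.0 CPM without carbon and 6.57 CPM on glucose, against 39.3 and 46.3 CPM for genes more than 200 genes from an end. Genes with a low mean CPM rose more often across the whole table, as given below. The part of level in the shares at the ends was not tested. Between 11 and 200 genes from an end, the share that rose was 26.4% to 30.6%, and beyond 200 genes it was 18.3%. The single ends varied. The share of rising genes reached 50% at the high-numbered end of chromosome 4 and at both ends of chromosome 7, whereas at the low-numbered end of chromosome 1 it was 10.3%, with 37.9% falling. Genes near ends were somewhat shorter, with a median of 1464 bases in the outermost 10 and 1615.5 bases beyond 200 genes. The difference in shares was present in both length classes. Among tested genes under the median length, 42.2% rose at the ends and 29.6% elsewhere. Among the others, 26.6% rose at the ends and 11.98% elsewhere.

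**Figure D4:**
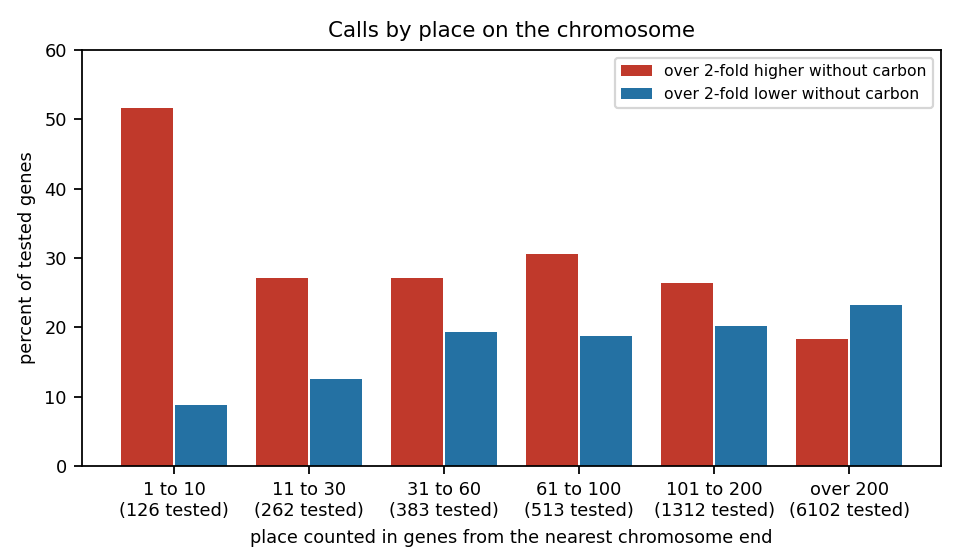
Share of tested genes, in percent, that rose over 2-fold or fell over 2-fold, in 6 classes of place counted in genes from the nearest chromosome end. Rising genes make up 51.6% of the outermost 10 and 18.3% of genes beyond 200, and falling genes 8.73% and 23.2%.

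Whole chromosomes differed as well. On chromosomes 4, 5 and 6, 27.6%, 27.8% and 25.8% of tested genes rose and 18.3%, 19.96% and 19.4% fell. On chromosomes 1, 2, 3 and 7, 17.5%, 19.5%, 21.5% and 18.7% rose and 22.7%, 22.2%, 22.7% and 25.1% fell. Leaving out the outermost 30 genes of each end gave 26.6%, 27.5% and 25.04% rising on chromosomes 4, 5 and 6, and 16.6% to 21.1% on the others. The median gene length was 1402.5 to 1532 bases on chromosomes 4, 5 and 6 and 1548 to 1638.5 bases on the others, and its part in these shares was not tested.

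Gene length went with the direction of change across the whole table. Genes that rose had a median model length of 1090 bases, genes that fell 1881 bases, and the rest 1620 bases. Among the shortest 10% of tested genes (153 to 657 bases), 47.7% rose and 8.14% fell, with a median log2 fold change of 1.22. Among the longest 10% (3131 to 27679 bases), 7.57% rose and 33.5% fell, with a median of -0.51. Both shares moved in 1 direction through the classes between these. The mean model length per transcript, each gene weighted by its per-length level, was 1122 and 1078 bases in the no carbon libraries, against 1310 and 1337 bases in the glucose libraries. Among models of at least 500 bases it was 1365 bases in each no carbon library, against 1474 and 1479 bases in the glucose libraries. The mean CPM, which is not scaled to gene length, went with direction too. Of the 10% of genes with the lowest mean CPM, 45.2% rose and 7.68% fell. Of the 10% with the highest, 13.1% rose and 24.5% fell. Per length the difference was smaller. By mean RPKM, 39.2% of the lowest 10% rose and 10.6% fell, beside 17.8% and 21.7% of the highest 10%. How far length itself entered each fold change was not tested. With the length trend of each library removed, 1701 genes rose and 1837 fell, and 1408 and 1545 of them were calls shared with the fit above. No gene called more than 2-fold in one direction was called more than 2-fold in the other, although 439 genes called at an adjusted p under 0.05 were called in opposite directions by these fits. Several of the largest rises shrank on the log2 scale: Mycth_2309773 to 8.09, Mycth_50128 to 6.60, Mycth_100541 to 5.69 and Mycth_2130409 to 5.79. Mycth_2307942, a model of 301 bases, went from 6.74 to 5.44. Among the falls, Mycth_2299888 went to -7.40, Mycth_2064854 to -6.78, Mycth_112805 to -6.53 and Mycth_108317 to -5.32.

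**Figure D5:**
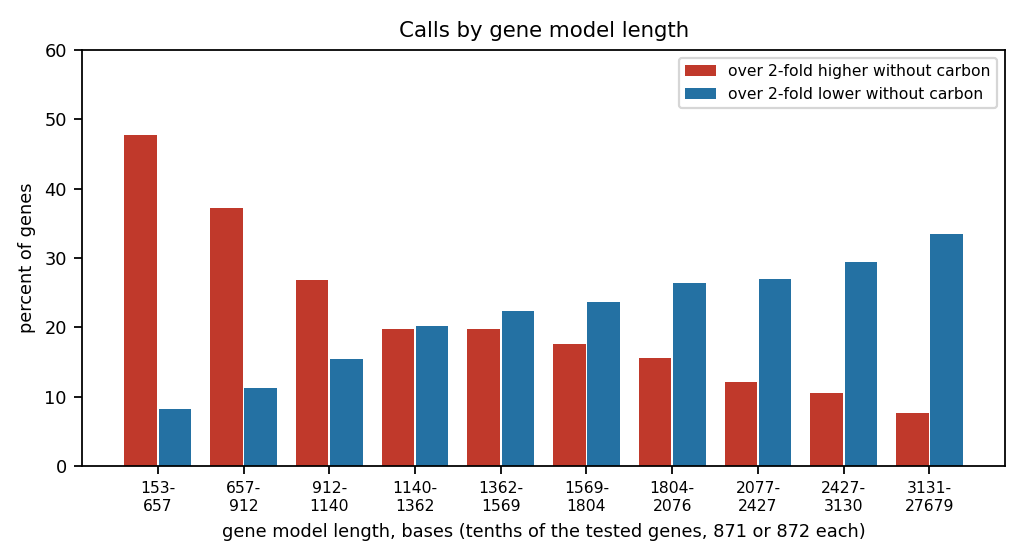
Share of genes, in percent, that rose over 2-fold or fell over 2-fold in 10 classes of equal size by model length in bases. Rising genes make up 7.57% of the longest class, against 47.7% of the shortest, and falling genes 33.5%, against 8.14%.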

How the data were processed

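The authors deposited raw read counts and RPKM per gene for each library, per the file headers. TopHat2 2.0.8b and HTSeq 0.5.4p2 are the tools in the submitters' processing notes. For their settings, the strand and the genome build, the sources used here give nothing. The deposited RPKM gave each gene's model length and the per-length total of each library. The share of short models in that total, the numbers of genes that made up part of it and the mean model length over all models came from it. The count analysis used edgeR 4.0.16 under R 4.3.3: filterByExpr kept 8718 genes and left out 392, 121 of them without a single read. TMM scaling and 1 robust quasi-likelihood fit over all 6 libraries (3 residual degrees of freedom) followed, with no covariate, a test of no change and a glmTreat test of 2-fold. Benjamini-Hochberg adjustment ran over all genes tested, with a threshold of 0.05. SE was back-calculated as the absolute log2 fold change over the square root of the F statistic of the quasi-likelihood test. The tests were tried on simulated counts drawn from the means and spread of this same fit, with few genes changed. Such counts cannot show errors from scaling, from the trend with gene length or from replicates that share a culture. CPM and RPKM printed here are scaled by TMM factors, and RPKM was recomputed from counts. Counting intervals are exact 95% intervals for genes with at most 20 reads in a group. DESeq2 1.42.0 and limma 3.58.1 were alternatives.

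IDs were matched to RefSeq locus tags (assembly ASM22609v1), which gave symbols for 6 genes and the gene order; coordinates are not printed, since the build of the counts is unnamed. Genes named are those with a symbol, the 10 largest rises and falls (at least 10 CPM in the higher group, no overlap), the 10 highest RPKM per medium among models of at least 500 bases, the 5 highest with an absolute log2 fold change under 0.1, and the 3 longest runs in each direction, with ties broken by the larger absolute median log2 fold change; flanking genes were named after their values were seen. Lists by product words, protein signatures and promoter motifs were planned and had no text or sequence to act on, so they have no value here. The comparison, lists and rules were chosen with earlier results of these data known.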

Additional observations from a re-analysis of the deposited data

How the results depend on the processing

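Counts of calls stayed within 1.5 times of the main values under every alternative: 2-fold calls were 1488 higher and 1673 lower with DESeq2, 1737 and 1805 with limma-voom, 2082 and 1674 with upper quartile scaling, and 1868 and 1893 when the fit held only the 4 no carbon and glucose libraries. Leaving out 1 library, with the lone library of a group assumed to vary like the other groups, gave 1785 to 1843 higher and 1828 to 1882 lower. Fitted with the replicate number as a block, the counts were 1867 higher and 1899 lower; same-numbered libraries did not deviate together (r = -0.00133), and nothing in the labels pairs them. Of the named genes, only 5 with an absolute log2 fold change under 0.1 changed direction. With library totals alone, log2 fold changes were 0.20 for Mycth_2298136, 0.20 for Mycth_2298252, 0.23 for Mycth_2304568 and 0.16 for Mycth_2315548. With upper quartile scaling they were 0.0917, 0.0855, 0.12 and 0.0476 for these genes in the same order. With the length trend removed they were -0.90 for Mycth_2090891, 0.11 for Mycth_2298136 and 0.0034 for Mycth_2315548, and with genes under 500 bases left out 0.0183 for Mycth_2304568. The causes were not tested. The share of rising genes at chromosome ends ran between 27.1% (DESeq2) and 44.3% (library totals), and elsewhere between 16.6% and 25.7%. With 2 libraries a group, small changes rest on a spread estimated across genes.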

Other observations

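Some short gene models had replicates far apart. Models under 500 bases took 6.88% and 8.45% of reads in the no carbon libraries, against 3.48% and 2.93% in the glucose libraries, and 443 of them could be tested. Of these, 210 were more than 2-fold higher without carbon and 41 more than 2-fold lower (edgeR glmTreat), beside 21.4% and 21.7% of all tested genes. In 6 of them, Mycth_2071504, Mycth_2071953, Mycth_2071285, Mycth_2071514, Mycth_2121175 and Mycth_2071561, replicates lay far apart in both media. Mycth_2071953, for example, had 186365 and 209302 reads without carbon, against 67220 and 51662 reads on glucose, although the second no carbon library was the shallower one and the second glucose library the deeper one. These 6 models passed the test of no change at edgeR adjusted p-values of 0.0154 to 0.0249 and did not pass the 2-fold test (0.0965 to 0.196). The first 4 named are neighbours on chromosome 7, and the other 2 had no match in the RefSeq table.

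There were 23 IDs without a RefSeq match. Of 20 that could be tested, 7 were more than 2-fold higher without carbon and 1 was more than 2-fold lower, beside 21.4% and 21.7% of all tested genes, and so few genes are given as a description. Mycth_2295220 had a mean of 111.9 CPM without carbon and 24.6 CPM on glucose, and Mycth_2302953 had 20.7 CPM without carbon and 2.41 CPM on glucose; both were chosen after their values were seen.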
